A study of Gallus gallus with 6 samples.

Results

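OTX2, HESX1, GBX2, EN1 and EMX2 are homeobox genes that mark positions along the head, from its front end to the boundary of midbrain and hindbrain. They were measured in chick epiblast that had lain under grafted head mesoderm. Every probe set annotated with 1 of these symbols alone was taken. These were 5 of the 13008 genes named on the array, and 7 of its 37690 probe sets: 2 for OTX2, 1 for HESX1, 1 for GBX2, 1 for EN1 and 2 for EMX2. Induced samples were epiblast of the area opaca, the outer and extraembryonic part of the blastoderm, collected 12 hours after lateral head mesoderm of stage HH6 donors had been placed on stage HH4- hosts. The mesoderm was taken off before collection. Control samples were area opaca from the opposite side, without a graft. There were 3 induced and 3 control samples, labelled as biological repeats, each of unmodified tissue on 1 Affymetrix array. The labels give no strain, and they do not say how many embryos a sample holds or which hosts induced and control samples share.

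As background, homeobox genes encode transcription factors that bind DNA through a homeodomain and give regions of the embryo their identity. OTX2 is active in the early epiblast and later in forebrain and midbrain, and head structures do not form without it in the mouse. HESX1, also known in chick as an ANF-class gene, encodes a repressor of the anterior neural fold and the pituitary primordium. GBX2 is active in the anterior hindbrain, and OTX2 and GBX2 repress each other in the neural plate, where the line between them sets the midbrain-hindbrain boundary. In ectoderm at the border of the neural plate the same pair marks anterior and more posterior placode progenitors. EN1 is a gene of the boundary region itself, and EMX2 one of the dorsal forebrain.

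The deposited signals are linear intensities, and their medians were 18.35, 8.3 and 7.5 units on the arrays of induced samples 1 to 3 and 17.7, 7.7 and 9.6 units on those of control samples 1 to 3. Both arrays of repeat 1 were the brightest. The arrays were therefore brought to a common distribution, and levels below are log2(signal + 16) after that step unless units are named. Of the 7 probe sets, 5 had a mean over the 6 arrays above the filter on low signal, at 4.5 on this scale, which kept 22614 probe sets in all. The tissue was checked against 10 markers of ectoderm and epiblast, of which 8 were named on the array and all 8 were measured. Their summed signal after normalization was 9633 to 10279.7 in induced and 9207 to 10804 in control samples (7162 to 15133 and 8533 to 14556 deposited units in induced and control samples). The epithelial genes CDH1 and EPCAM had at least 1159 deposited units on every array. By limma 6 of the 8 were higher and 2 lower in induced samples, and 0 passed an adjusted p of 0.05. An unadjusted p under 0.05 was found for 2, SOX3 (log2 difference 0.49, SE 0.195) and KRT7 (-0.32, SE 0.106), as for 11.6% of all genes kept. GRHL3 had -0.68 (SE 0.328). Sums weigh the brightest genes most and can hide such differences.

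OTX2, HESX1 and GBX2 had higher mean levels in induced epiblast, by log2 differences of 1.23 to 2.08, and EN1 and EMX2 were near the floor in both groups. The higher levels came from induced samples 1 and 2 above all. None of the 5 kept probe sets passed an adjusted p of 0.05 by limma over all kept probe sets, while 4 of the 5, those of OTX2, HESX1 and GBX2, had an unadjusted p under 0.05. Over all 22614 kept probe sets, 0.0973% passed the adjusted threshold in either direction (0.0663% higher, 0.031% lower) and 9.76% had an unadjusted p under 0.05 (4.74% higher). In tissue samples of this kind, more cells that express a gene and more RNA per cell cannot be told apart.

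OTX2 was read by 2 probe sets. The brighter, Gga.10.1.S1_at, had 379.7, 339.4 and 56.3 deposited units in induced samples 1 to 3 and 63.7, 17.8 and 38.5 units in control samples 1 to 3. After normalization these were levels of 7.86, 8.72 and 6.73 in induced samples, against 5.78, 5.39 and 5.89 in controls. All 3 induced samples lay above all 3 controls, with sample 2 the highest and sample 3 the nearest to the controls. The mean was 7.77 ± 1.00 in induced and 5.69 ± 0.26 in control samples (SD, n = 3 each). The log2 fold change was 2.08 (SE 0.414, 95% interval 1.16 to 3.00), or 4.23-fold on the scale of signal + 16. The limma p was 0.000516 before and 0.124 after adjustment over all kept probe sets. An exact permutation test of 3 against 3 arrays gave p = 0.1 (two-sided), the smallest value it can give. By size of the difference this was the 13th highest of the kept probe sets.

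The second OTX2 probe set, GgaAffx.20141.1.S1_at, had 97.8, 96.7 and 22.2 units in induced samples 1 to 3 and 21.9, 7.2 and 13.7 units in control samples 1 to 3. The levels were 6.20, 7.03 and 5.67 in induced and 4.89, 4.73 and 4.98 in control samples, again without overlap and in the same order among the induced samples. It gave a log2 difference of 1.43 (SE 0.303, 95% interval 0.76 to 2.11, limma adjusted p = 0.147), smaller than that of the brighter probe set. Signals of 2 of its 3 controls lay under 16 units, a range in which the pseudocount of 16 shrinks fold changes. With 1 in place of 16 added, the estimates of the brighter and the second probe set were 2.48 and 2.17.

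HESX1 was read by 1 probe set, Gga.3416.4.S1_a_at, of a kind that can match several transcripts of a gene. It had 95.6, 80.2 and 6.1 units in induced samples 1 to 3 and 20.0, 4.0 and 7.6 units in control samples 1 to 3. The levels were 6.18, 6.80 and 4.64 in induced and 4.84, 4.45 and 4.64 in control samples. Induced samples 1 and 2 lay above every control, whereas induced sample 3 lay within the range of the controls, so that the groups overlapped. The means were 5.87 ± 1.11 and 4.64 ± 0.19 in induced and control samples (SD, n = 3 each). The log2 fold change was 1.23 (SE 0.442, 95% interval 0.24 to 2.21), with a limma p of 0.0194 before and 0.390 after adjustment, and an exact permutation p of 0.3. Control samples 2 and 3 were under 16 units. With 1 in place of 16 the difference was 1.98, and with 64 it was 0.62.

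GBX2, read by Gga.565.1.S1_at, had 537, 183.6 and 34.1 units in induced samples 1 to 3 and 53.7, 26.4 and 36.4 units in control samples 1 to 3. The levels were 8.32, 7.85 and 6.13 in induced samples, against 5.61, 5.76 and 5.82 in controls. The groups did not overlap, but induced sample 3 was closer to the highest control than to either other induced sample. Here sample 1 was the highest, while sample 2 was the highest for OTX2 and HESX1. The means were 7.43 ± 1.15 in induced and 5.73 ± 0.11 in control samples (SD, n = 3 each). The log2 fold change was 1.70 (SE 0.457, 95% interval 0.68 to 2.72, limma adjusted p = 0.227), or 3.25-fold on the scale of signal + 16, and the exact permutation p was 0.1. The gene that forms the other side of the OTX2 boundary in the neural plate was thus high on the same induced arrays as OTX2.

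EN1 and EMX2 gave no sign of signal above the low range in either group. The EN1 probe set GgaAffx.7682.1.S1_at had 5.6, 2.4 and 1.0 units in induced samples 1 to 3 and 4.0, 13.4 and 0.5 units in control samples 1 to 3, and its mean was below the filter. The EMX2 probe set Gga.7683.1.S1_at had 4.8, 4.0 and 6.4 units in induced samples 1 to 3 and 7.7, 11.8 and 10.6 units in control samples 1 to 3. It was kept by the filter, and the groups differed by -0.31 (SE 0.201, 95% interval -0.76 to 0.14, limma adjusted p = 0.703). The other EMX2 probe set, Gga.6557.1.S1_at, reached at most 7.5 units and was below the filter. No array gave any of these 3 probe sets 16 units. With 1 in place of 16 added, the difference of the kept EMX2 probe set was -0.82, and with 64 it was -0.11. It did not pass in any setting, and a difference of EN1 or EMX2 at this signal could have been missed.

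Groups without overlap were found for 3 of the 5 kept member probe sets, both of OTX2 and that of GBX2. The share over all kept probe sets was 14.4% (7.74% with the induced samples higher). Below the filter, the groups overlapped for EN1 and for Gga.6557.1.S1_at of EMX2. On the deposited values without normalization, where the arrays of repeat 1 are brighter, only the second OTX2 probe set kept induced samples above the controls. In those values the brighter EMX2 probe set had all induced samples below the controls. With each array centred on its median, the same 3 probe sets as in the reported setting showed no overlap. The shares of 14.4% and 7.74% are those of quantile normalized values. The results without normalization or with median centring thus have no share over all probe sets beside them.

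**Figure D1:**
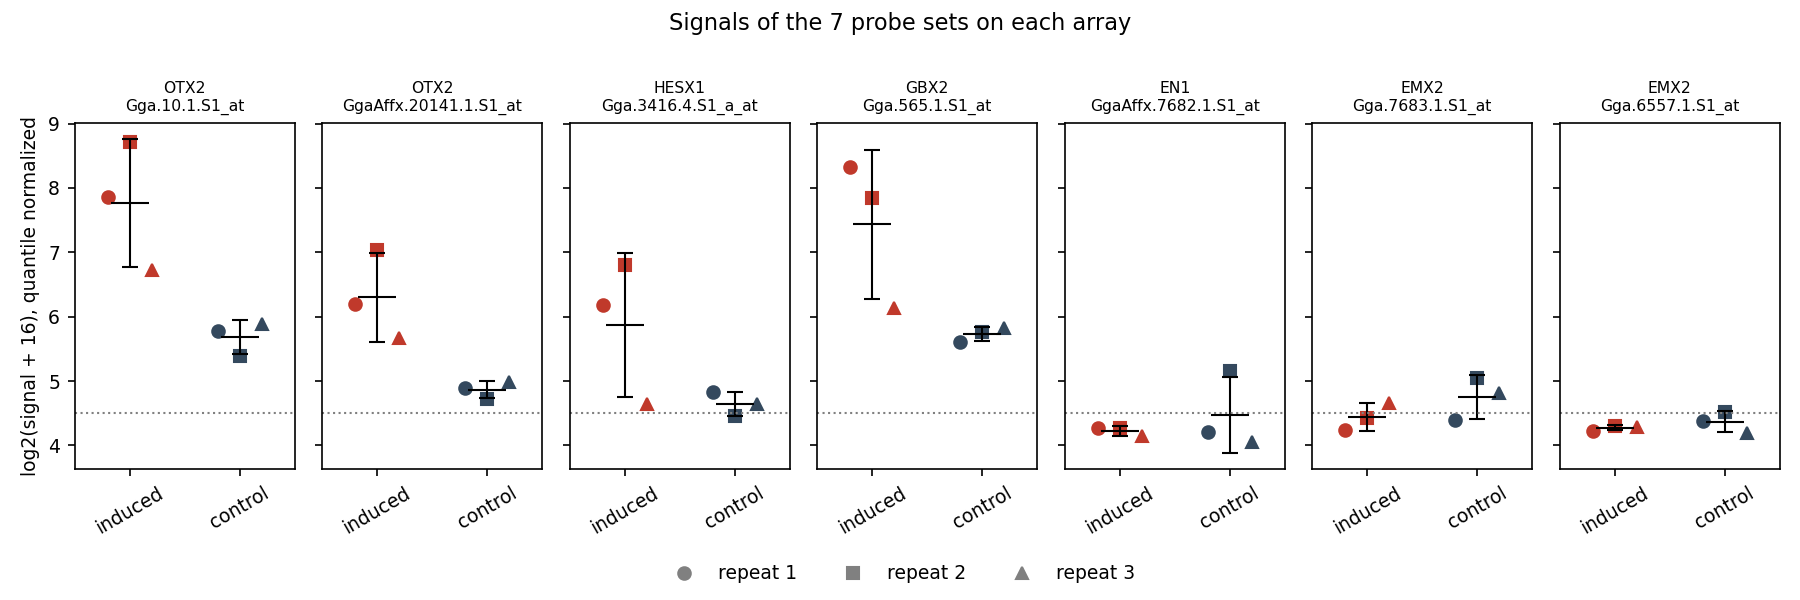
Levels of the 7 probe sets, as log2(signal + 16) after quantile normalization, in induced (red) and control (dark) samples. Symbols give the repeat number, bars the mean and SD of 3 arrays, and the dotted line the filter at 4.5. Induced samples 1 and 2 stand above the controls for OTX2, HESX1 and GBX2, induced sample 3 is the lowest of the induced samples in these 4 panels, and EN1 and EMX2 lie near the filter throughout.

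The spread among induced samples was wide for these genes. The SD over induced arrays was 1.00 and 0.69 for the probe sets of OTX2, 1.11 for HESX1 and 1.15 for GBX2, against a median of 0.20 over all kept probe sets. It was larger than that of 99.7% and 98.6% of kept probe sets for OTX2, 99.8% for HESX1 and 99.9% for GBX2. That these genes vary among induced samples was known when they were chosen, so these ranks and those below are a description only. Over control arrays the same probe sets had SDs of 0.26 and 0.13, 0.19 and 0.11, beside a median of 0.22. The wide spread of these genes was thus one among induced samples, while among controls they varied about as much as, or less than, a typical probe set.

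Each induced array was therefore set against the mean of the 3 controls. In induced sample 1, GBX2 lay 2.59 above the control mean, a distance matched or exceeded by 6 probe sets, itself included, of the 22614. OTX2 lay 2.17 and 1.33 above, and HESX1 1.53 above. In induced sample 2, OTX2 lay 3.03 above, matched by 12 probe sets, with 2.16 for its second probe set, 2.16 for HESX1 and 2.12 for GBX2. These members were among the highest 0.394% of kept probe sets in both samples.

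In induced sample 3 the 3 genes parted. OTX2 still lay 1.04 and 0.80 above the control mean, which put its probe sets among the highest 0.332% and 0.88%. GBX2 lay 0.40 above, where 9.58% of the kept probe sets were at least as high. HESX1 had a difference of -0.01, with 51.8% of the probe sets at least as high. The array as a whole had fewer high probe sets: 88 lay at least 1 above the control mean, against 194 in sample 1 and 304 in sample 2. The 15 probe sets that passed as higher over all samples lay 1.20 to 3.23 above the control mean in sample 3, 1.46 to 2.89 in sample 1 and 1.51 to 3.64 in sample 2. Since a small spread among the induced arrays helps a probe set to pass, this is a description of those probe sets only.

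**Figure D2:**
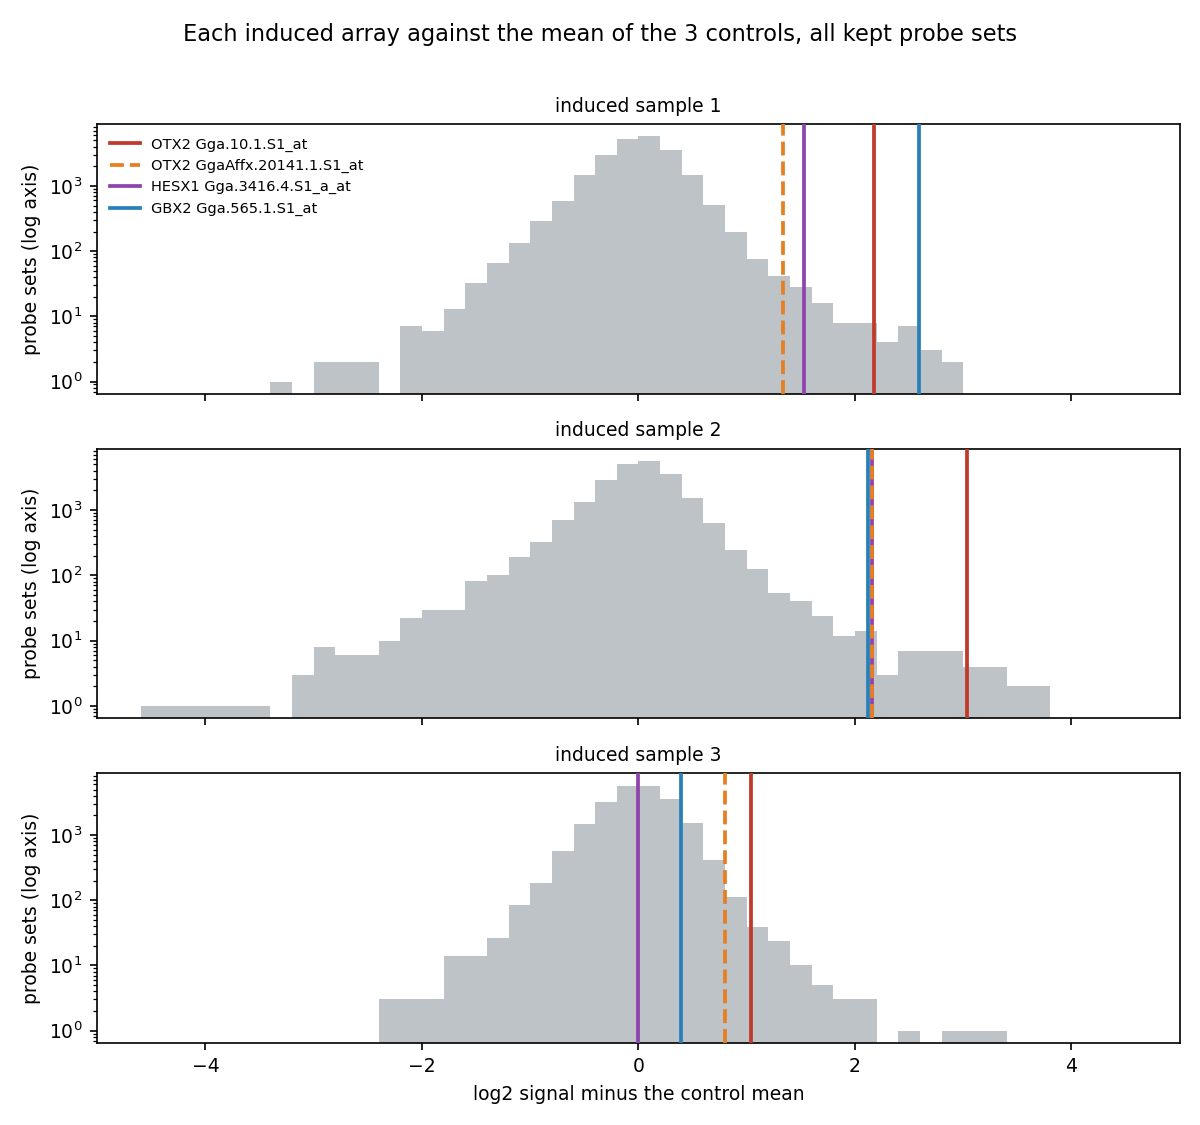
Distribution over the 22614 kept probe sets of the log2 level on each induced array minus the mean of the 3 controls, with the number of probe sets on a log axis. Lines mark OTX2 (solid red and dashed orange), HESX1 (purple) and GBX2 (blue). All 4 lines lie in the upper tail in samples 1 and 2, while in sample 3 HESX1 is in the middle of the distribution. The dashed OTX2 line covers that of HESX1 in sample 2.

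The fit was repeated without each array. Without induced sample 3, both probe sets of OTX2, that of HESX1 and that of GBX2 passed as higher, when 0.486% of all probe sets passed (0.287% higher). The log2 fold changes were then 2.65 (SE 0.301, adjusted p = 0.00922) and 1.81 (SE 0.275, adjusted p = 0.0317) for OTX2, 1.91 (SE 0.253, adjusted p = 0.0195) for HESX1 and 2.40 (SE 0.238, adjusted p = 0.00674) for GBX2. Leaving out any other single array gave 0 calls among these probe sets by limma at the adjusted threshold. The unadjusted p of both OTX2 probe sets and of GBX2 was under 0.05 in all 5 of these runs, and that of HESX1 in 2 of 5. Over all 22614 kept probe sets, 1237 to 2682 had such a p in these runs, which share most of their arrays. In the same 5 runs the differences were 1.61 to 2.20 for the brighter OTX2 probe set and 1.23 to 1.76 for GBX2. Those of HESX1 were 0.77 to 1.27, where the lowest was that without induced sample 2. Sample 3 was left out here because of a known spread, and the values without it are no replacement for those of all 3 samples.

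Both arrays of repeat 1 were brighter, so the differences were also taken within each level of brightness. Between the 2 arrays of repeat 1 alone, which allow no test, OTX2 differed by 2.08 and 1.31, HESX1 by 1.34 and GBX2 by 2.71. In the 4 dimmer arrays OTX2 had log2 fold changes of 1.98 (SE 0.547, limma adjusted p = 0.435) and 1.36 (SE 0.381, adjusted p = 0.445), and HESX1 had 1.06 (SE 0.532, adjusted p = 0.629). GBX2 had 1.13 (SE 0.467, adjusted p = 0.564) there, against 1.70 in all arrays. All of these differences were above 0 in this grouping, which averages repeats 2 and 3. Between the 2 arrays of repeat 2 alone the differences were 3.33 and 2.30 for OTX2, 2.35 for HESX1 and 2.09 for GBX2. Between those of repeat 3 alone they were 0.84 and 0.69 for OTX2, -0.0058 for HESX1 and 0.30 for GBX2. The part of brightness in the differences was not tested.

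**Figure D3:**
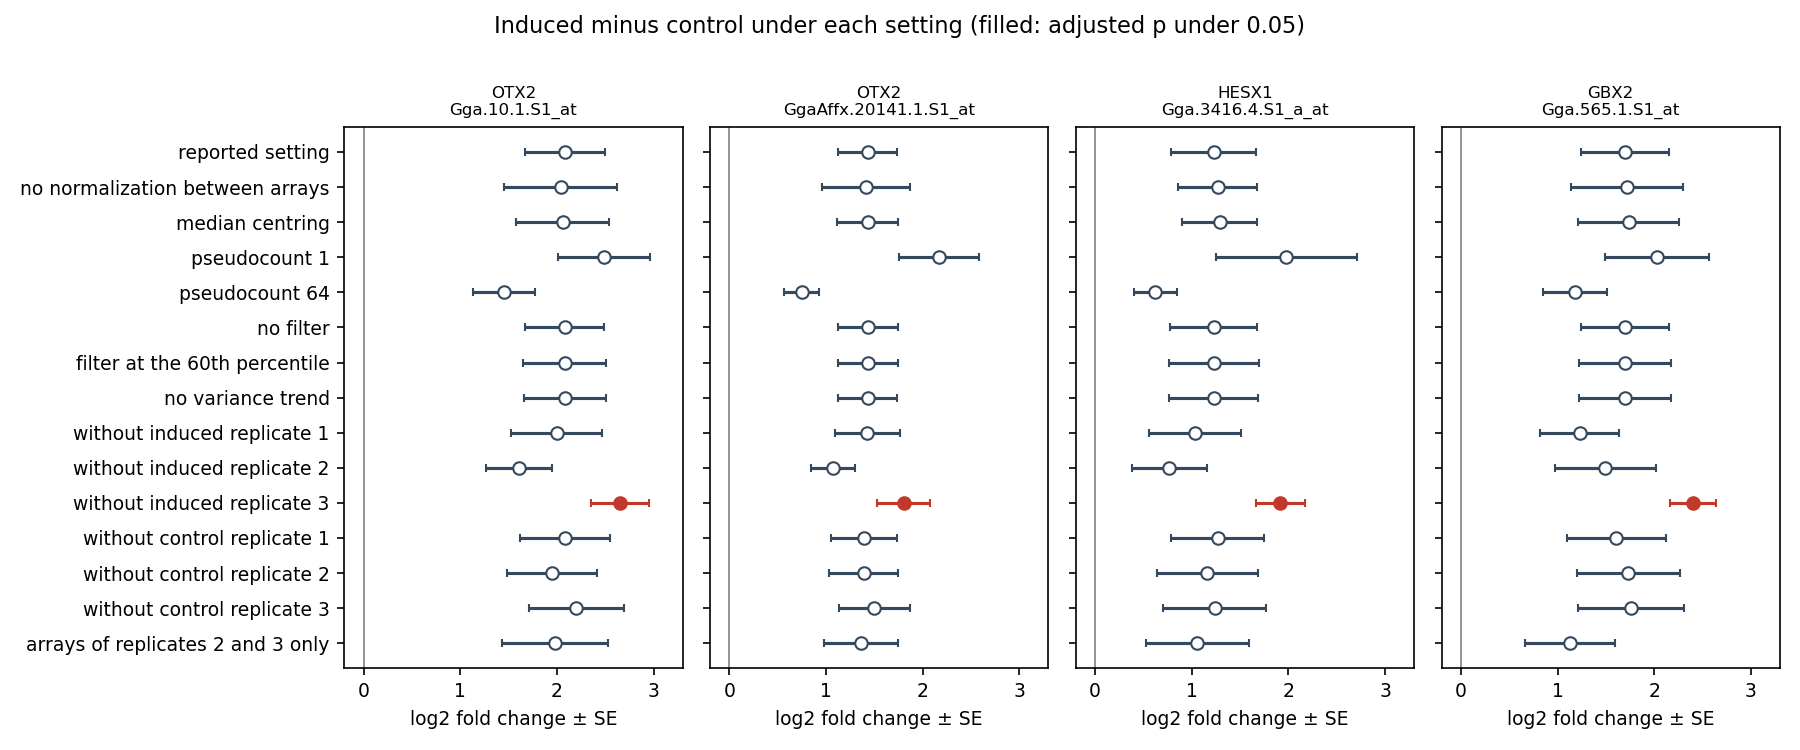
Log2 fold change (induced minus control) with its SE for the probe sets of OTX2, HESX1 and GBX2 in the reported setting and 14 others. Filled red points passed an adjusted p of 0.05. Every estimate is above 0, and only those without induced sample 3 are filled. Fits with a replicate block are not drawn.

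Other genes of head position were read from lists. Of 16 forebrain and anterior genes, 10 were named on the array and 3 were kept, with 2 higher and 1 lower, 0 passing the adjusted threshold by limma and 1 with an unadjusted p under 0.05. Their median log2 fold change was 0.06, beside 0.02 over all 10118 genes kept, of which 0.188% passed (0.119% higher, 0.0692% lower) and 11.6% had an unadjusted p under 0.05. SP8, a zinc finger transcription factor of the anterior neural ridge and nasal ectoderm, was the member with an unadjusted p under 0.05. It had 472.9, 374.9 and 16.1 units in induced samples 1 to 3 and 39.1, 16.5 and 25.0 units in control samples 1 to 3. After normalization the levels were 8.16, 8.84 and 5.36 in induced and 5.33, 5.33 and 5.46 in control samples. Like HESX1, SP8 thus stood far above the controls in induced samples 1 and 2, and its normalized level in sample 3 was within their range. Its log2 fold change was 2.08 (SE 0.695, adjusted p = 0.342), and without induced sample 3 it passed, at 3.19 (SE 0.258, adjusted p = 0.00674). In that fit 0.486% of all kept probe sets passed (0.287% higher). Among the induced samples SP8 was at the level of the controls in sample 3 alone. Leaving out that sample favours a pass, so the value without it is a description only. PAX6, a gene of eye and forebrain, had 0.06 (SE 0.154) and VAX1, one of the ventral eye field, -0.14 (SE 0.207).

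The other 7 named anterior genes lay below the filter. The eye field and forebrain gene SIX3 had 9.6, 13.9 and 4.8 units in induced and 2.5, 2.3 and 1.6 units in control samples. NKX2-1, a gene of the ventral forebrain, had 8.7, 6.4 and 10.4 units in induced and 0.9, 0.7 and 0.5 units in controls. These were chosen after their values were seen, because the groups did not overlap in units, and the signals are too low for a fold change to be read. SIX6, LHX2, LHX5, FEZF2 and DMBX1 reached at most 18.2 units.

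Of 13 midbrain-hindbrain boundary genes, 9 were named and 4 kept, with 3 higher and 1 lower. By limma 0 passed and 2 had an unadjusted p under 0.05, which 11.6% of all genes kept had. The median log2 fold change was 0.48. SPRY2, an inhibitor of FGF signalling that is itself switched on by FGF, had 142.1, 132.3 and 40.3 units in induced and 77.3, 38.2 and 50.1 units in control samples, and a log2 difference of 0.69 (SE 0.275, adjusted p = 0.446). PAX2, a paired-box gene of the boundary and the ear placode, had 16.6, 15.0 and 8.5 units in induced and 5.0, 1.8 and 4.3 units in control samples (0.60, SE 0.163, adjusted p = 0.241). LMX1B had 0.36 (SE 0.257) and SPRY1, a related inhibitor, -0.0026 (SE 0.185). WNT1, the secreted signal of the boundary, had at most 4.1 units, FGF8 at most 12.1, PAX5 at most 8.8 and FGF18 at most 18 units. GBX1, the paralog of GBX2, had 1.3, 3.1 and 1.0 units in induced and 8.3, 3.5 and 7.2 units in control samples, without overlap but below 16 units on every array. After normalization, the groups did not overlap for SPRY2 and PAX2, with induced samples higher. Groups without overlap in either direction were found for 16.6% of all genes kept, and with induced samples higher for 7.74% of kept probe sets. In deposited units the groups overlapped for SPRY2, and PAX2 reached at most 16.6 units.

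Of 13 hindbrain and posterior genes, 10 were named and 8 kept, and all 8 were lower in induced samples, with a median log2 fold change of -0.78. By limma 0 passed and 5 had an unadjusted p under 0.05. Of all genes kept, 11.6% had such a p in either direction and 46.8% had a mean below the control mean. The lowest p was that of CDX4, a caudal-type homeobox gene of the posterior body, with 459.3, 58.5 and 199.2 units in induced and 1534, 388.2 and 568.6 units in control samples (-1.79, SE 0.440, adjusted p = 0.194). CDX2 had -0.93 (SE 0.294, adjusted p = 0.314), HOXA3 -0.65 (SE 0.236, adjusted p = 0.396) and HOXB3 -1.40 (SE 0.512, adjusted p = 0.401). After normalization the induced and control groups did not overlap for CDX4, CDX2 and HOXA3, as in 16.6% of all genes kept in either direction, while in deposited units the groups overlapped for all 3. The mean level of the list relative to the control mean was -0.66, -1.30 and -0.40 in induced samples 1 to 3 and 0.10, -0.46 and 0.36 in control samples 1 to 3. Induced sample 3 thus lay within the range of the controls for this list.

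**Figure D4:**
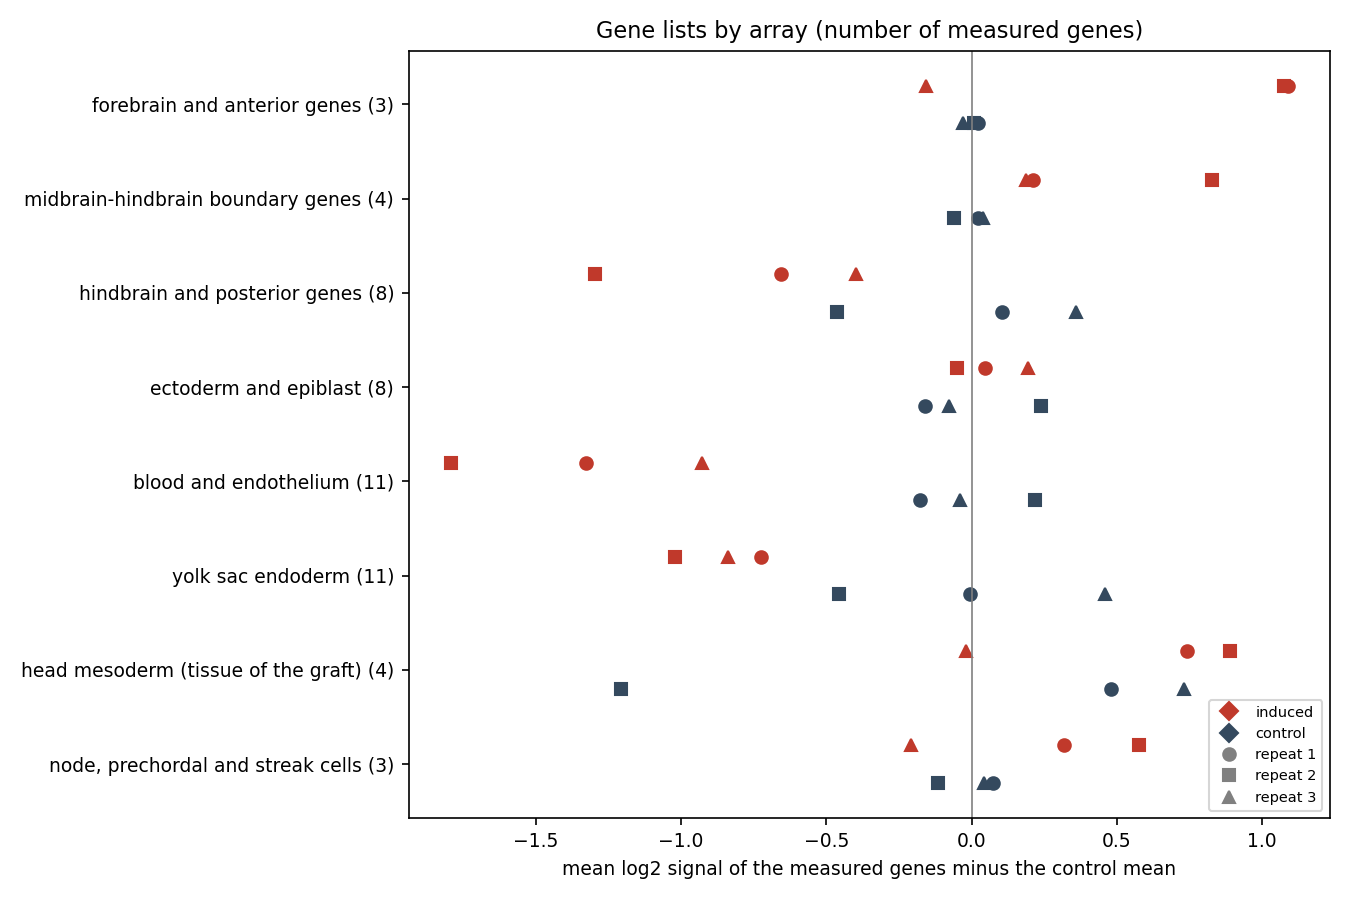
Mean log2 level of the measured genes of each list on each array minus the mean of the controls, for 3 induced (red) and 3 control (dark) samples, with the number of measured genes in brackets. The forebrain and anterior list is high in induced samples 1 and 2 through SP8, as PAX6 and VAX1 alone average 0.24, -0.12 and -0.23 in induced samples 1 to 3. The blood and yolk sac lists lie below all controls in the 3 induced samples, and for the hindbrain and posterior list induced sample 3 (-0.40) lies above control sample 2 (-0.46).

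Markers of other tissues were read as well. The list for blood and endothelium had 11 of 13 genes named and measured, all 11 lower in induced samples, of which TAL1, KDR and LMO2 passed. Of all genes kept, 46.8% had a mean below the control mean and 0.0692% passed as lower by limma. An unadjusted p under 0.05 was found for 11.6% of them in either direction. TAL1, a transcription factor of blood precursors, fell by 1.74 on the log2 scale (SE 0.203, adjusted p = 0.0187), KDR, a receptor for VEGF, fell by 1.84 (SE 0.216) and LMO2, a partner of TAL1, fell by 2.18 (SE 0.296). None of the 3 passed without induced sample 1, induced sample 2 or control sample 3, when 0 genes of the list did. Its summed signal after normalization was 519.9 to 1567 in induced and 2476 to 3298 in control samples (431.2 to 1668 and 2459 to 4247 deposited units in induced and control samples), and its mean difference from the controls was -1.33, -1.79 and -0.93 in induced samples 1 to 3. Of the yolk sac endoderm list, 11 of 14 genes were measured, 10 of them lower and 0 passing by limma (7 with an unadjusted p under 0.05), with summed normalized signals over its 13 named genes of 2025 to 2460.0 in induced and 3008 to 6020.3 in control samples. In deposited units the sums overlapped, at 1517 to 4107 in induced and 2295 to 6099.6 in control samples. The part of either list in the higher OTX2, HESX1 and GBX2 of induced samples was not tested.

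Head mesoderm is the tissue of the graft, and 4 of its 11 listed genes were measured, 2 higher and 2 lower, with 0 passing by limma at either the adjusted or an unadjusted 0.05. Over its 9 named genes the summed signal after normalization was 655.8 to 1545 in induced and 168.4 to 1289 in control samples, so that the groups overlapped. In induced samples 1 to 3 it was 1545, 1542 and 655.8 after normalization and 2623, 1290 and 404.7 in deposited units. In control samples 1 to 3 it was 961.1, 168.4 and 1289 after normalization and 1649.7, 116.5 and 1107 in deposited units. Among the induced samples it was lowest in sample 3 on both scales, and sample 3 was the lowest of them for OTX2, HESX1 and GBX2 too. Control samples 1 and 3 had higher sums than induced sample 3 on both scales. Of the 4 measured genes, FOXC2 had 1427.7, 670.4 and 162.1 units in induced samples 1 to 3 and 451.8, 13.6 and 501.1 units in control samples 1 to 3. Its levels after normalization were 9.76, 9.68 and 8.12 in induced and 8.11, 5.16 and 9.23 in control samples (log2 difference 1.69, SE 0.850, limma adjusted p = 0.579). PRRX1 differed by 0.69 (SE 0.553), TWIST1 by -0.09 (SE 0.462) and FOXC1 by -0.13 (SE 0.190). TBX1, TWIST2 and MEOX1 were under 16 units on every array. The list of node, prechordal and streak cells, which can also express OTX2, had 3 of 9 genes measured, with 0 passing by limma at either threshold. Over its 9 named genes the summed signal after normalization was 91.8, 137 and 58.1 in induced samples 1 to 3 and 51.5 to 72.9 in controls, and the deposited units summed to 151.4, 110.1 and 39.4 in induced samples 1 to 3 and 34.5 to 117 in controls. All 3 measured genes had higher means in induced samples. TBXT had 45.4, 73.2 and 8.2 units in induced samples 1 to 3 and 53.6, 11.0 and 23.1 units in control samples 1 to 3 (log2 difference 0.32, SE 0.399). CHRD had 42.1, 11.9 and 7.3 units in induced and 8.3, 10.6 and 9.8 units in control samples (0.31, SE 0.214), and GSC differed by 0.05 (SE 0.182). CER1, EOMES, MIXL1, TBX6, SHH and LHX1 were under 16 units on every array, with CER1, a secreted antagonist of anterior endoderm and mesoderm, at no more than 3.6. The part of either tissue in the differences of OTX2, HESX1 and GBX2 was not tested.

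The genes whose levels ran most like those of the members over the 6 arrays were found by Pearson's r among 1640 genes with a range of at least 1. These r values describe 6 arrays that share the 2 groups, and no p is given. For OTX2 they were CBLN3, of the cerebellin family of secreted proteins (r = 0.994), PKDCCA, of a family of secreted kinases (r = 0.993), and PGM2L1, a sugar phosphate enzyme (r = 0.988). Like OTX2, these were highest in induced sample 2 and lowest of the induced samples in sample 3, where they still lay above the controls. PKDCCA had levels of 9.54, 10.27 and 8.26 in induced samples 1 to 3 and 6.77, 6.29 and 7.24 in control samples 1 to 3. The probe set of CBLN3 can match several transcripts, and its levels in controls were 4.46 to 4.77, near the filter at 4.5.

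For HESX1 they were LUM, an extracellular matrix proteoglycan (r = 0.992), SP8 (r = 0.989) and CYP26C1, an enzyme that breaks down retinoic acid (r = 0.984). CYP26C1 had levels of 5.82, 6.98 and 4.54 in induced samples 1 to 3 and 4.72, 4.36 and 4.25 in control samples 1 to 3, and its probe set can match several transcripts. LUM, SP8 and CYP26C1 all lay near the controls in induced sample 3.

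For GBX2 they were GRPR, a receptor for gastrin-releasing peptide (r = 0.990), MAOA, a monoamine oxidase (r = 0.980), and DLX6, a distal-less homeobox gene of the placode territory (r = 0.960). DLX6 had levels of 6.54, 6.34 and 5.50 in induced samples 1 to 3 and 5.22, 4.77 and 4.98 in control samples 1 to 3. These 3 were also low in induced sample 3 and above the controls there. The levels of GRPR were near the floor, at 4.06 to 4.18 in controls and 4.46 in induced sample 3. For the kept EMX2 probe set, whose signals were below 16 units, they were ARID5B, TET2 and DSC1, with r of 0.994, 0.990 and 0.987, and all 3 had lower means in induced samples. The probe sets of ARID5B and DSC1 can also match several transcripts. None of the genes named for any member passed the adjusted threshold.

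**Figure D5:**
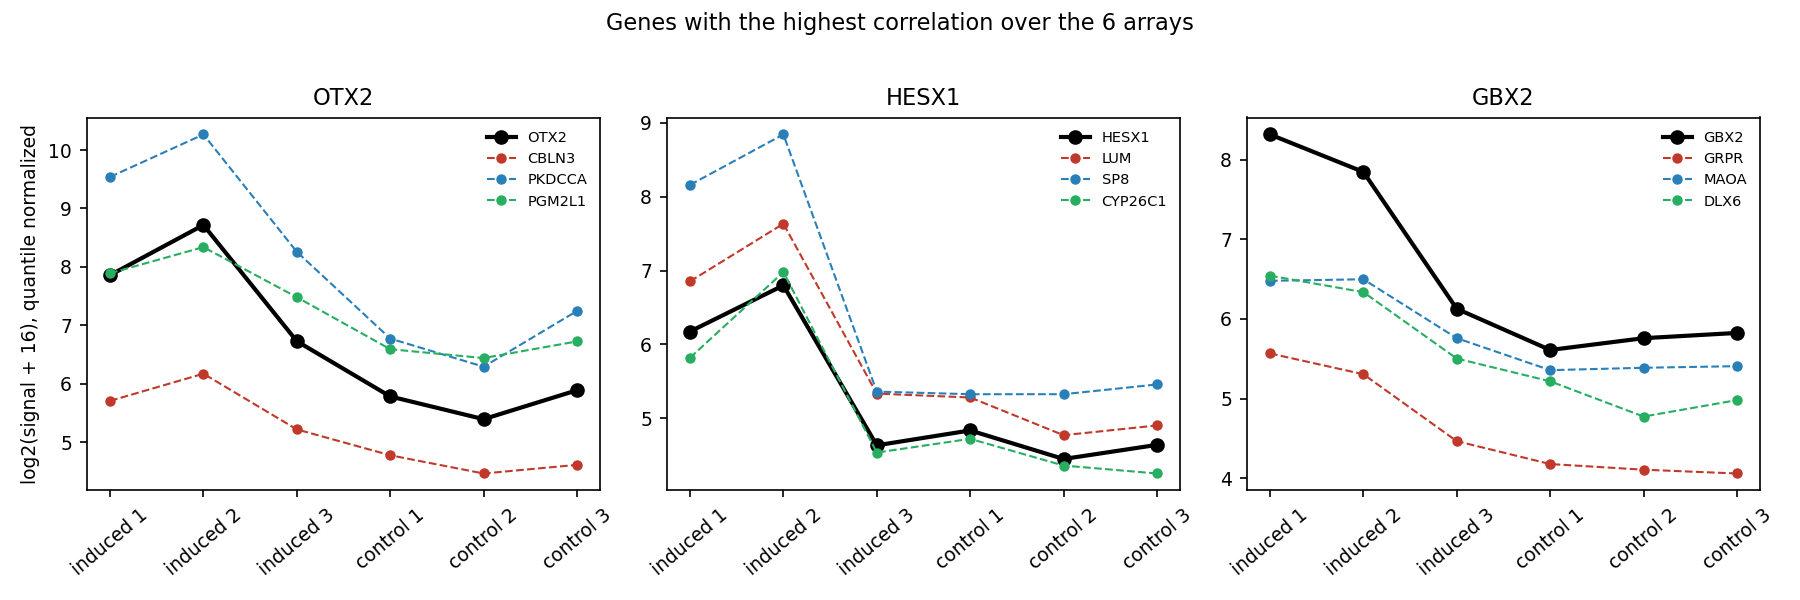
Levels of OTX2, HESX1 and GBX2 (black) on the 6 arrays with the 3 genes of highest Pearson's r for each (dashed), as log2(signal + 16) after normalization. The genes beside OTX2 and GBX2 stay above the controls in induced sample 3, and those beside HESX1 come close to the controls there.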

How the data were processed

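Total RNA of 3 induced and 3 control tissue samples was hybridized to Affymetrix arrays. The deposited table holds linear intensity values, 1 per probe set and array, and MAS5 is named in the submitters' processing notes. Version and settings of MAS5 are unknown here. Array medians differed, so log2(signal + 16) was quantile normalized, which would remove a shift of most genes. Probe sets with a mean below the 40th percentile were left out. The test was that of limma 3.58.1, run in R 4.3.3 (lmFit, eBayes with a variance trend, group as the only term), with Benjamini-Hochberg adjustment over 22614 probe sets. The script was tested on simulated data. The number of arrays limits precision, and the labels do not say whether samples came from separate sets of embryos, so p-values cover the spread among these samples only.

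Gene symbols are those of GEO's platform annotation, updated by Entrez number (27166 with 1 symbol, 177 with several, 10347 with none). For a listed gene the probe set of highest mean was used, and older names of listed genes were not matched. By rule, named genes are all members, the list genes that passed, the 4 with the lowest p in each position list, and the 3 most correlated genes per member. Further list genes were named after their values were seen. These include SIX3, NKX2-1, GBX1, the ectoderm and epiblast genes, the measured head mesoderm and node genes, and those under the filter. Members and lists were chosen with earlier results of these data known. The labels state no pairing, so the repeat numbers were not taken to pair samples. Same-numbered arrays had deviations from their group means that correlated at 0.55, -0.15 and 0.07 for repeats 1 to 3. Arrays of different numbers had correlations from -0.45 to 0.40. With 3 arrays in each group, these values cannot settle whether samples are paired. Other normalizations, pseudocounts, filters, variance models, a replicate block and omission of arrays were tried.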

Additional observations from a re-analysis of the deposited data

How the results depend on the processing

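Estimates of OTX2, HESX1 and GBX2 kept their sign in every setting run, from 1.45 to 2.65 and 0.75 to 2.17 for the probe sets of OTX2, 0.62 to 1.98 for HESX1 and 1.13 to 2.40 for GBX2, and EMX2 (Gga.7683.1.S1_at) ran from -0.82 to -0.11. Probe sets of OTX2, HESX1 and GBX2 passed in 2 settings. Without induced sample 3, 4 member probe sets were called, at log2 fold changes of 2.65, 1.81, 1.91 and 2.40. There 0.486% of all kept probe sets passed. With the replicate block on values that were not normalized, 4 were called. Their values were 2.04 and 1.41 for OTX2, 1.27 for HESX1 and 1.72 for GBX2. In that fit 2.6% of all kept probe sets passed, against 0.0973% in the reported setting. In fits without normalization limma gave every probe set the variance of the trend, with no weight on its own spread. With the replicate block on normalized values 0 member probe sets were called by limma, with OTX2 at adjusted p = 0.135 and 0.145, HESX1 at 0.288 and GBX2 at 0.193. Adjusted over genes, OTX2 had 0.0768. Leaving out 1 array at a time gave 1.61 to 2.65 and 1.07 to 1.81 for OTX2, 0.77 to 1.91 for HESX1, 1.23 to 2.40 for GBX2 and 0 to 4 member calls.

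Over all probe sets 22 passed, against 38 adjusted over genes (20 higher, 18 lower, added after seeing the data), 5 in the 4 dimmer arrays, 12 without normalization, 587 with the replicate block and no normalization, and 2 to 110 with an array left out: 5, 2 and 110 without induced samples 1 to 3 and 35, 12 and 10 without control samples 1 to 3. Blood and endothelium genes called were 3, against 0 in the dimmer arrays, 0 without normalization, 9 with block and no normalization and 0 to 6 without an array. They were 0 without induced samples 1 or 2 or control 3, 1 without control 2 and 6 without induced 3. The median of that list was -1.52, against -0.86 with a pseudocount of 64 and -1.60 to -0.96 without an array. With block and no normalization 1 forebrain, 1 head mesoderm, 2 posterior and 6 yolk sac genes were called, and with the block on normalized values 1 yolk sac gene. Forebrain calls were 0 to 1 without an array. Medians moved to 2.08 for the forebrain list at the 60th percentile filter (1 gene), to -1.13 (that filter) and -1.55 (pseudocount 1) for yolk sac, and to 0.10 (no filter), 0.78 (pseudocount 1) and 0.18 (pseudocount 64) for the boundary list. Without an array the boundary median ran from 0.095 to 0.64 and that of head mesoderm from -0.12 to 1.14. The cause of these moves was not tested.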
